A study of Mus musculus with 12 samples.

Results

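Igsf1, Agt, Etnppl, Pvalb, Ncs1, Slc25a18, Sparc, Krt12 and Dsg1c are 9 genes whose levels differed widely between single samples of mouse caudate putamen. They were chosen by their measured levels: each had a probe with a large loading on the first principal component of the 12 arrays, the axis along which the samples spread most. All probes carrying 1 of these symbols in the platform annotation were taken, which gave 20 of 45281 probes. Of these, 16 were detected on at least 6 arrays, with a detection p under 0.05, and were tested among 20296 probes naming 10933 genes. Each of the 9 genes kept at least 1 tested probe. Because the log2 levels on all 12 arrays selected the genes, their spread, their covariation and the samples in which they were high are given as a description, with no test.

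The samples were total RNA of caudate putamen, the dorsal striatum, from male C57BL/6J mice aged 12 weeks. In the ethanol group the mothers had free choice of 10% (v/v) ethanol in early pregnancy, starting 0.5 and ending 8.5 days post-coitum, so that the offspring were exposed only in early gestation. The control group is labelled only as control. Each group had 6 samples, of which replicates 1 to 3 lay on 1 chip of bead arrays (chip 1) and replicates 4 to 6 on another (chip 2). The labels do not say whether samples came from separate mice or litters, so the p-values speak only for the variation among these arrays, which may be partly technical.

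Array-wide values overlapped between the groups, but raw median intensity differed by chip. It lay between 149.5 and 153.2 on chip 1 and between 136.1 and 144.5 on chip 2. Per array, 19452 to 21949 probes were detected, most on control 4 (21949) and ethanol 3 (21526). The first principal component held 19.3% of the variance and the second 15.6%, against 9.82% for group and 11.8% for chip. Striatal projection neuron markers, checked for the labelled tissue, had mean log2 levels of 12.39 to 12.82 in every sample, with 18 of 22 listed genes tested.

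As background, the genes fall into several roles. Agt encodes angiotensinogen, the precursor of the angiotensins, which astrocytes make in the brain. Etnppl is the enzyme that breaks down phosphoethanolamine, Slc25a18 is a mitochondrial glutamate carrier, and Sparc is a secreted glycoprotein of the extracellular matrix; all 3 are known from astrocytes, and Sparc from vessels too. Pvalb encodes parvalbumin, the calcium buffer of fast-spiking interneurons, and Ncs1 a calcium sensor of neurons. Igsf1 is an X-linked membrane glycoprotein whose loss in humans and mice causes central hypothyroidism. Krt12 is a keratin best known from the corneal epithelium, and Dsg1c a desmosomal cadherin best known from stratified epithelia.

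Promoter windows from RefSeq (GRCm38.p6), reaching from 250 bases before to 50 bases after an annotated start, are shown for the members whose levels ran most closely together, Agt with Sparc and Igsf1 with Slc25a18, and for Krt12. Capitals mark TATAAA and GGGCGG, searched on both strands, and each line runs 5′ to 3′ on the gene's strand. The windows lie at chr8:124569657-124569956 (Agt, minus strand), chr11:55420031-55420330 (Sparc, minus), chrX:49788194-49788493 (Igsf1, minus, 1 of 3 annotated starts, shown because it held matches), chr6:120773518-120773817 (Slc25a18, plus) and chr11:99422210-99422509 (Krt12, minus).
Agt: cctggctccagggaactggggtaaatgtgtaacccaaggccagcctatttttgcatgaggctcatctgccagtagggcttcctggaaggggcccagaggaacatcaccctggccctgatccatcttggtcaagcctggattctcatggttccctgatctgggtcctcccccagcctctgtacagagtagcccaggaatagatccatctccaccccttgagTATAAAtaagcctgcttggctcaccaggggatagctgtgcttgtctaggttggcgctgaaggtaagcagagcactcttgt
Sparc: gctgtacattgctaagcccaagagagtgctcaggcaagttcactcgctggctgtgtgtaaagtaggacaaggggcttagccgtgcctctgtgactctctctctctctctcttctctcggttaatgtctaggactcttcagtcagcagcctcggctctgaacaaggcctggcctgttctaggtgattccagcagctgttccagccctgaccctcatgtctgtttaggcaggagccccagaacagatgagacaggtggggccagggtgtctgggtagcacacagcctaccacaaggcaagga
Igsf1: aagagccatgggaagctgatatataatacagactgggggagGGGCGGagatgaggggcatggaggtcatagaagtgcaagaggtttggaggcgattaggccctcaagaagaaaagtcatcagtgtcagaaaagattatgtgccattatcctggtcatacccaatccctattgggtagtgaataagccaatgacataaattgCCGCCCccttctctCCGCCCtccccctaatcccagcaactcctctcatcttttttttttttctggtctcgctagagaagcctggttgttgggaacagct
Slc25a18: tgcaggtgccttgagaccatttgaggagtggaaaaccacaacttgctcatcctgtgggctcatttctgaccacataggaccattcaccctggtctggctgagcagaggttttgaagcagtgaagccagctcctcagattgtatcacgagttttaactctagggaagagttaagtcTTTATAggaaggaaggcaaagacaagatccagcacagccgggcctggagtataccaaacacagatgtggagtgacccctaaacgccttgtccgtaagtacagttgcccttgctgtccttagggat
Krt12: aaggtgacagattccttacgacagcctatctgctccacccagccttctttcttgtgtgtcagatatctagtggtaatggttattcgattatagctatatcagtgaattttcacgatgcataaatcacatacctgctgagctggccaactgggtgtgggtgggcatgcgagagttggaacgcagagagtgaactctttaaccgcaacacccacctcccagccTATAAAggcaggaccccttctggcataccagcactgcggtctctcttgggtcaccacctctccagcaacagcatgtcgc

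Counted from the start, TATAAA began at position -30 in Agt and -29 in Krt12, and its reverse complement lay at -75 in Slc25a18. These were 3 of the 12 windows of 8 members, and 13.6% of 32851 windows in the reference held that motif. GGGCGG was in 4 of the 12 windows, those of Etnppl (both starts), Ncs1 and the Igsf1 start printed above, against 35.7% of all windows. The windows of the Etnppl starts overlap and hold the same GGGCGG site, which is counted in both. The Sparc window held neither motif, although Sparc and Agt had the highest correlation of any pair of different members. CCAAT was in 1 of the 12 windows (37.4% of all), CANNTG in 10 (72.3%, with the same Etnppl sites counted in both of its windows), TGACGTCA in 0 (1.79%) and the palindrome bound by NFI factors in 0 (0.0365%). Hence no motif searched was shared by all of these windows. A match describes letters only.

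After background correction, Igsf1 varied most of all members. On the raw scale, its first probe read 954.8 in ethanol 3, 477.5 in control 4 and 458.9 in ethanol 4, but 134.3 and 136.7 in ethanol 5 and ethanol 6, where it was not detected. The log2 intensity after background correction was 5.50, 7.59, 9.61, 8.40, 5.05 and 5.10 in ethanol 1 to 6, and 5.72, 6.19, 6.97, 8.32, 7.07 and 5.36 in control 1 to 6. Both groups thus held high and low samples and overlapped over most of their range. The second probe for the same transcript ran from 4.75 in ethanol 5 to 9.38 in ethanol 3 and followed the first closely (Pearson's r = 0.99, Spearman's rho = 0.99, n = 12). The standard deviation of the first probe over the 12 samples was 1.50, against a median of 0.203 over all tested probes. The 2 further Igsf1 probes, annotated to other transcripts, were dim: 1 was detected only in ethanol 3, at 5.56, and the other on 0 arrays.

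Agt was near background in many samples and clear in few. Its log2 level was 4.80, 6.64, 8.57, 5.27, 4.72 and 4.88 in ethanol 1 to 6 and 4.84, 4.67, 5.46, 7.07, 5.87 and 5.72 in control 1 to 6. It was detected on 6 arrays, ethanol 2 and 3 and control 3 to 6, so it met the filter with none to spare. Ethanol 3 stood highest, followed by control 4 and ethanol 2, and the lowest sample was control 2. Ethanol 4, second highest for Igsf1, ranked 7 of 12 for Agt and was not detected there.

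Etnppl peaked in a control sample. Its first probe read 6.41, 8.28, 8.91, 7.26, 6.52 and 6.61 in ethanol 1 to 6 and 6.49, 7.61, 7.28, 9.10, 7.82 and 7.18 in control 1 to 6. Control 4, ethanol 3 and ethanol 2 were the highest 3 samples by either probe, and the probes' r was 0.97. Slc25a18, by contrast, peaked in both ethanol samples that were high for Igsf1. It read 8.60, 9.32, 10.92, 10.74, 8.43 and 8.49 in ethanol 1 to 6 and 8.44, 8.65, 9.13, 10.38, 9.03 and 8.17 in control 1 to 6. Ethanol 3, ethanol 4 and control 4 stood at 10.38 or above, and no other sample exceeded 9.32.

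The first of the 3 Sparc probes read 10.28, 10.96, 11.93, 10.57, 10.25 and 10.44 in ethanol 1 to 6 and 10.12, 10.37, 10.46, 11.42, 10.56 and 10.48 in control 1 to 6. Ethanol 3 was highest and control 4 second by all 3 Sparc probes. The second probe ran from 8.84 to 10.56 and the third from 6.02 to 8.48. Leaving out those 2 samples, the first and the second probe still correlated at r = 0.70, but the second and the third only at 0.09 (0.81 over all 12), so the agreement of the dimmest probe with the second rested on ethanol 3 and control 4.

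Among the neuronal genes, Pvalb was 12.46 in ethanol 3 and 11.44 in control 4. The other ethanol samples read 9.55, 10.85, 9.64, 9.38 and 9.64 (replicates 1, 2, 4, 5 and 6), and the other controls 9.85, 10.39, 10.29, 10.45 and 9.54 (replicates 1, 2, 3, 5 and 6). On the raw scale this was 6020.3 in ethanol 3 against 702.1 in ethanol 5. Ncs1 was chosen through 1 of its 3 probes. That probe read 5.10, 6.41, 7.98, 5.96, 5.55 and 5.64 in ethanol 1 to 6 and 5.49, 5.77, 6.43, 7.04, 6.07 and 5.88 in control 1 to 6, highest in ethanol 3 and control 4. The brightest Ncs1 probe stayed between 6.85 and 7.56 and the dimmest between 5.45 and 6.07. The chosen probe's r was 0.03 with the brightest and -0.63 with the dimmest, although all 3 are annotated to 1 transcript. The probes of Ncs1 therefore disagree. The pairwise correlations below use the chosen probe, and the mean pattern of the 9 genes uses the brightest.

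Krt12 and Dsg1c spread the ethanol group more than the control group, as did every other tested member probe except the dimmest of Ncs1. The choice of genes bears on this, as ethanol 3 scored highest on the first component. The share over all tested probes was not counted, and nothing is read from the spread. The standard deviation of the first Krt12 probe was 0.89 in the ethanol and 0.28 in the control samples. That of the first Igsf1 probe was 1.93 and 1.07. The first Krt12 probe read 8.35, 9.85, 10.01, 8.45, 8.30 and 7.91 in ethanol 1 to 6 and 9.06, 9.56, 9.58, 9.56, 9.15 and 8.97 in control 1 to 6. Ethanol 2 and 3 lay above every control, and ethanol 1, 4, 5 and 6 below every control. The second probe showed the same split (r = 0.99 between the probes). Dsg1c ran the other way: its 1 tested probe read 6.62, 5.48, 4.81, 8.03, 6.65 and 7.13 in ethanol 1 to 6 and 5.86, 5.89, 6.56, 5.59, 6.14 and 6.01 in control 1 to 6. Ethanol 4 was highest and ethanol 3, where it was not detected, lowest. The other 2 Dsg1c probes were detected on 0 arrays.

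**Figure D1:**
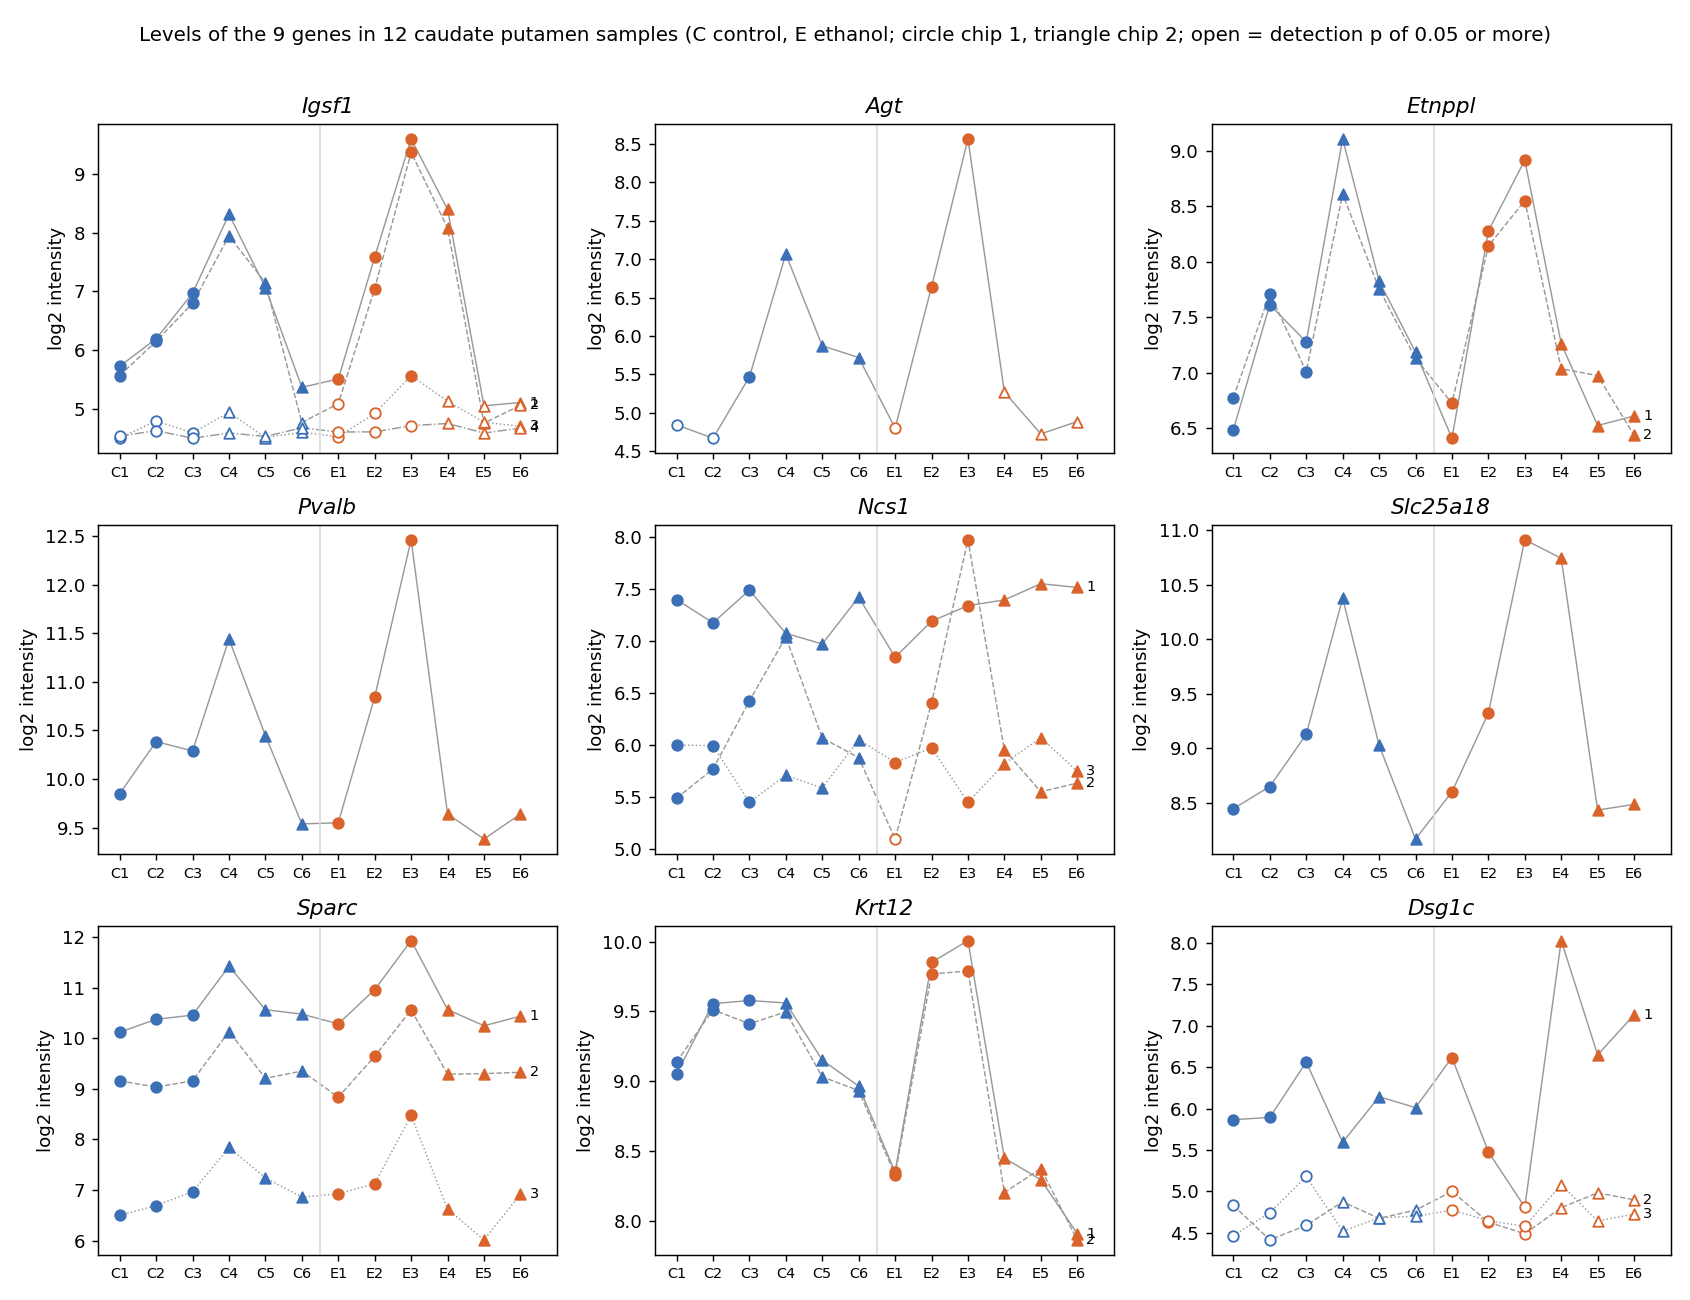
Background-corrected, quantile-normalized log2 intensity (y) of every probe of the 9 genes in the 6 control (C, blue) and 6 ethanol (E, orange) samples (x), numbered where a gene has several probes; circles are chip 1, triangles chip 2, and open symbols mark a detection p of 0.05 or more. E3 is the highest sample for 11 of the 16 tested probes, E3 and C4 are the highest 2 for 8 of them, E4 is second for Slc25a18 and the first Igsf1 probe, and the first Dsg1c probe is lowest in E3.

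Taking each gene's probe with the largest loading, 7 of the 9 genes were highest in ethanol 3, and in 5 the highest 2 samples were ethanol 3 and control 4. The loadings ran from 0.0754 for Igsf1, ranked 2 of all tested probes, to 0.0375 for Krt12, ranked 14. Dsg1c loaded at -0.0438. The gene next after Krt12, Aldh1a1, loaded at 0.0372. Among probes of no member, Ttr ranked 1 at 0.0852, an unnamed probe 5 at 0.0625 and Npas4 10 at -0.0442. The members were chosen for large loadings, though not every high-ranking gene was taken, and the loadings are not results. Of the 16 tested probes, 12 were among the 25 largest loadings and 13 had a standard deviation above the 99th percentile of all tested probes.

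The 8 genes other than Dsg1c covaried to different degrees. Over their 28 pairs, with the brightest tested probe of each and the second probe of Ncs1, the median Pearson's r across the 12 samples was 0.83, from 0.41 to 0.97. All points share the arrays and their normalization. Without ethanol 3 and control 4 the median was 0.67. The closest pair was Agt and the first Sparc probe (r = 0.97, rho = 0.90), which gave 0.88 without the 2 samples farthest from the median. Within chip 1 that pair's r was 0.98 and within chip 2 0.93.

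Slc25a18 and Igsf1 formed a second close pair (r = 0.95, rho = 0.94, and 0.92 without ethanol 3 and ethanol 4). The weakest pair was Slc25a18 with Krt12 (r = 0.41, rho = 0.65). Slc25a18 with Agt gave 0.72 over all samples but 0.30 without ethanol 3 and control 4, and 0.98 on chip 1 against 0.48 on chip 2. That low value on chip 2 includes ethanol 4, where Slc25a18 was at 10.74 and Agt at 5.27. Dsg1c ran against Krt12 (r = -0.79, rho = -0.82) and Pvalb (r = -0.75), while its r was -0.11 with Slc25a18 and -0.32 with the first Igsf1 probe. Without ethanol 3 and ethanol 4 those values were -0.49 and -0.66. On chip 1 they were -0.76 and -0.80, and on chip 2 0.27 and 0.07. Its r with Krt12 was -0.85 among the ethanol samples and 0.07 among the controls, so that this relation was not seen in the controls alone.

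**Figure D2:**
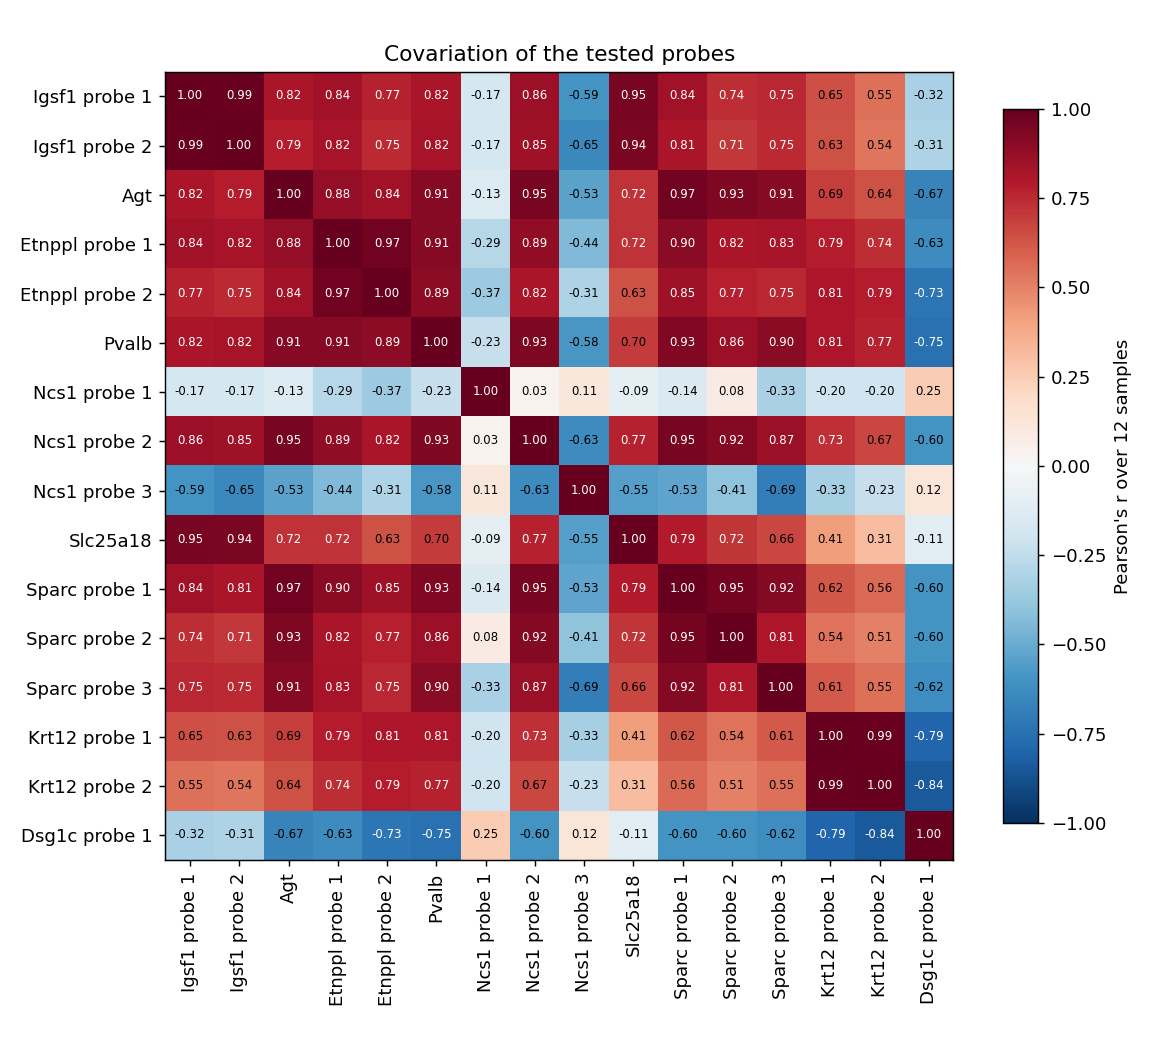
Pearson's r over the 12 samples between each pair of the 16 tested probes (red positive, blue negative). Probes of Igsf1, Agt, Etnppl, Pvalb, Slc25a18, Sparc and Krt12 and the second Ncs1 probe are positive with each other, Dsg1c is mostly negative, and the other 2 Ncs1 probes stand apart.

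The choice of genes used the levels but not the group labels. The highest scores on the first component were in different groups, ethanol 3 (0.61) and control 4 (0.46). The group comparison asked whether the members' levels differed between offspring of ethanol-drinking and control mothers. None of the 16 tested probes did so by limma's test with Benjamini-Hochberg adjustment over all 20296 probes, where 0 probes (0%) were called. At an unadjusted p under 0.05 there were 0 of 16 member probes, against 5.79% of all probes, and 0 of 16 had groups that did not overlap, against 0.266%. The value was higher in the ethanol group for 9 probes and lower for 7. The choice of genes bears on these counts, and nothing is read from them.

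The largest differences in either direction were those of Krt12 and Slc25a18. The second Krt12 probe had a log2 difference, ethanol minus control, of -0.53 (SE 0.302, limma adjusted p = 0.859) and the first of -0.50 (SE 0.321, adjusted p = 0.867). Slc25a18 differed by 0.45 (SE 0.473, adjusted p = 0.936) and Dsg1c by 0.44 (SE 0.412, adjusted p = 0.916). The first Igsf1 probe differed by 0.27, with a 95% interval of -1.34 to 1.88, and Agt by 0.21 (SE 0.598, adjusted p = 0.982). Differences of more than 1 log2 unit in either direction lie inside the interval for Igsf1, so these data do not show that the groups were alike.

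The within-chip differences mostly pointed in opposite directions. The log2 difference of Agt, ethanol minus control, was 1.68 on chip 1 and -1.26 on chip 2. The first Igsf1 probe gave 1.27 and -0.73, the first Etnppl probe 0.74 and -1.24, Pvalb 0.78 and -0.92, and Dsg1c -0.47 and 1.36. The first Krt12 probe gave 0.01 and -1.01, and Slc25a18 gave 0.87 and 0.03. In all, 14 of 16 probes had opposite signs on the 2 chips, against 53.8% of all tested probes. Ethanol 3 lies on chip 1 and control 4 on chip 2, so the choice of genes bears on this count and nothing is read from it.

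The difference between chips in the group effect was tested as an interaction. By limma 0 of 20296 probes (0%) were called, and the lowest adjusted p among the members was 0.415, for Agt, the third Sparc probe and Dsg1c. The Agt interaction was -2.94 log2 units (SE 0.977) and that of Dsg1c 1.83 (SE 0.594). At an unadjusted p under 0.05 there were 7 of 16 member probes (9.98% of all probes), a count to which the same limit applies. Between the chips themselves, 2 probes of all 20296 were called (0.00985%), none of them a member. Only the 2 Krt12 probes had an unadjusted p under 0.05 for chip among the members (9.93% of all probes), with -0.68 and -0.67 log2 units, chip 2 minus chip 1, and adjusted p of 0.454 and 0.403 by limma.

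**Figure D3:**
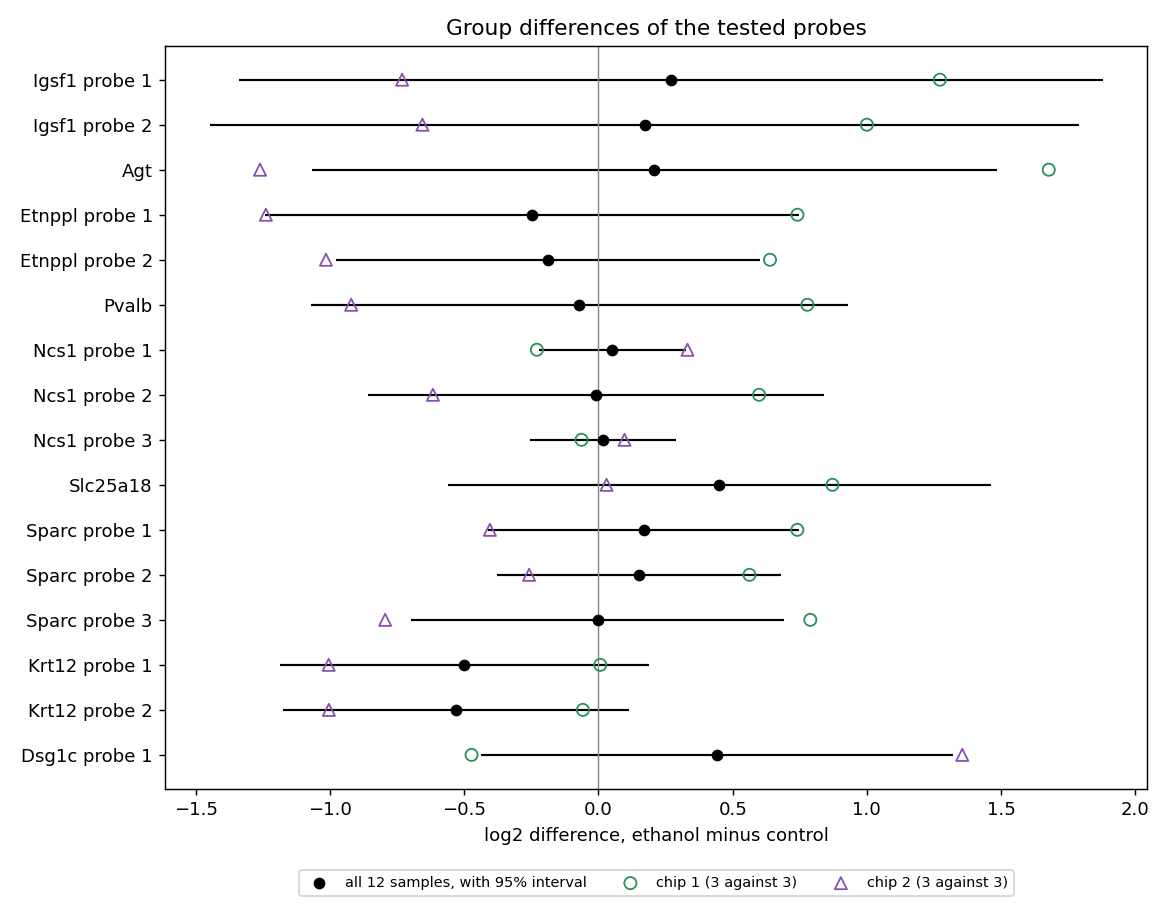
Log2 difference, ethanol minus control, of the 16 tested probes over all 12 samples (black, with 95% interval from limma) and within chip 1 (green circles) and chip 2 (purple triangles), 3 samples per group each. Every interval includes 0, and for 14 of 16 probes the chips lie on opposite sides of 0.

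The members' own pathways gave no called gene. Of the renin-angiotensin list, 9 of 20 genes were tested, 0 rose and 0 fell, and 4 values were higher and 5 lower with a median difference of -0.04, where all tested probes had 0.00. Agtrap, which binds the angiotensin receptor, had the smallest p, with a difference of 0.31 (SE 0.140, limma adjusted p = 0.845), followed by the peptidases Thop1 (-0.15) and Mme (-0.18). Of the phosphatidylethanolamine list 14 of 18 were tested with 0 called; Etnk1, the kinase that makes the substrate of Etnppl, differed by -0.20 (SE 0.081, adjusted p = 0.845), Sgpl1 by -0.24 and Ptdss1 by 0.14. The lists of thyroid hormone signalling (9 of 17 tested), neuronal calcium sensors (10 of 12), parvalbumin-neuron genes (12 of 20), glutamate carriers and enzymes (8 of 13), Sparc family and basement membrane (15 of 21) and keratins and desmosome (9 of 37) also had 0 called in either direction by limma, with medians from -0.00 to 0.09. At an unadjusted p under 0.05 each of the 8 lists had 1 gene, except the thyroid and the glutamate list with 0, which makes 6 of 86 genes (6.98%) against 5.79% of all tested probes. Those with the smallest p were Hr, Klf9 and Trh (-0.27, -0.21 and -0.22) of the thyroid list and Kcnip3, Guca1b and Kcnip1 (-0.39, 0.23 and 0.42) of the calcium sensors. In the parvalbumin-neuron list they were Osbpl3, Cplx1 and Tac1 (-0.40, -0.10 and 0.13; Tac1 is also on the list of striatal projection neuron markers), and in the glutamate list Slc1a3, Slc1a2 and Glud1 (0.15, -0.14 and 0.11). In the Sparc list they were Col4a2, a basement membrane collagen (0.22, SE 0.073, adjusted p = 0.845), Col4a1 and Lamb2 (0.24 and 0.15), and in the keratin list Evpl, Dsg2 and Krt4 (0.43, 0.30 and 0.17).

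Against the mean standardised level of the 9 genes, each by its brightest probe, 7 of the 86 tested genes of those 8 lists (8.14%) had r above 0.7 and 1 (1.16%) below -0.7. Of the 10924 genes that are no members the shares were 3.39% and 2.01%. Of the parvalbumin-neuron list, Hapln4, a link protein of the perineuronal matrix, was at r = 0.94 and Vamp1 at 0.87, and the median of its 12 tested genes was -0.11. Chpt1, a phospholipid synthesis enzyme, was at 0.94 in the phosphatidylethanolamine list, and no renin-angiotensin gene passed 0.7. Of the calcium sensors, Hpcal1 was at 0.78 and Vsnl1 at 0.71, and of the Sparc list Smoc1, a secreted relative of Sparc, was at 0.75. Of the keratin and desmosome list, 27 of the 36 genes with a probe did not pass the detection filter, and of the 9 tested genes Pkp4 was at 0.83 and Krt9 at -0.82. Krt12 was thus measured in a tissue where most of the listed keratin and desmosome genes with a probe were not detected on 6 arrays.

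The genes nearest to the mean pattern were Slc5a5, the sodium-iodide symporter (r = 0.96, rho = 0.92, n = 12), followed by Atp13a4, Dab2, Steap2, Hapln4, Chpt1, Gjb2, Rassf5, C1ql2, Efr3a, Zcchc24, Slc8a1, Ptpdc1, Ccdc184 and Camk2n2 (0.91). The most opposed were Dhrsx (r = -0.92), Insm1, Akap5, Pbx3, Inhba, Pde4dip, Nomo1, Kcnv1, Ythdc2 and Csgalnact2 (-0.87). With the most variable Ncs1 probe and Dsg1c turned in sign, 5 of the 15 and 6 of the 10 remained. Slc5a5 itself was 9.06 in ethanol 3, 8.50 in control 4 and 8.18 in ethanol 4, and its lowest value was 7.48, in ethanol 1. Most members had a nearest gene of their own. Each such value is the highest r among 10924 genes over 12 samples. The dimmest Ncs1 probe, which stayed between 5.45 and 6.07, also reached 0.93, with Plekhg4. Igsf1 was nearest to Hapln4 (0.96), Agt and the first Sparc probe both to Endod1 (0.95 and 0.96), Etnppl to Sulf2 (0.96) and Pvalb to Olig1 (0.96). Slc25a18 was nearest to Adgra1 and Camk2n2 (0.97 each), the second Ncs1 probe to C1ql2 (0.96), Krt12 to Grm8 (0.91) and Dsg1c to Wnt7a (0.93). The next 4 were Dab2, Slc5a5, Adgra1 and Ptpdc1 for Igsf1, Arhgap12, Hadhb, Nfe2l3 and Nudt4 for Agt, and Chpt1, Kndc1, Endod1 and Scd1 for Etnppl. They were Esrrg, Hadhb, Trak2 and Rassf4 for Pvalb, Grik1, Tmem25 and Ednrb after the first 2 for Slc25a18, and Gjb2, Itpkb, Slc8a1 and Tmc7 for Sparc. For the second Ncs1 probe they were Hadhb, Rassf5, Trak2 and Hs3st1, for Krt12 Fkbp9, Sgpp2, Rora and Denr, and for Dsg1c Hs3st3a1, Kmt2a, Spint1 and Runx1t1. Without the 2 samples farthest from the median, Igsf1 with Hapln4 was still at 0.95 and Slc25a18 with Camk2n2 at 0.96, while Agt with Nudt4 was at 0.67 (0.93 over all 12).

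Some marker lists of cell types and neighbouring regions moved with the members and others did not, and their part in the members' levels was not tested. In bulk tissue, fewer cells of a type and less RNA per cell cannot be told apart. The astrocyte list, 18 of 22 genes tested, had a mean log2 level of 9.92 to 10.56 in the ethanol samples and 9.95 to 10.44 in the controls, highest in ethanol 3 and control 4; Mlc1, Gli1 and Slc14a1 did not pass the filter. Its r was 0.95 with the first Sparc probe, 0.93 with Igsf1, 0.92 with Slc25a18, 0.90 with Agt and 0.87 with Pvalb, but 0.55 with Krt12 and -0.43 with Dsg1c. Without the 2 samples farthest from the median of each member, which differ between members, it was 0.96 for Slc25a18 and 0.89 for the first Igsf1 probe but 0.60 for Agt and 0.47 for Pvalb. Within the list, 7 of 18 genes had r above 0.7 with the mean pattern, with a median of 0.64, against -0.00 over all genes. Gfap, the astrocyte filament, was 10.02 in ethanol 3 and 9.78 in control 4 and lay between 7.97 and 9.38 in the others. Its r with the mean pattern was 0.89. Aqp4, also on the astrocyte list, had a lower r of 0.50. It lay between 8.99 and 9.71, highest in ethanol 3 and next in ethanol 1 (9.56).

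The mean level of oligodendrocyte markers, over 16 of 19 genes, was 9.96 to 11.35 in the ethanol samples and 10.55 to 11.36 in the controls, highest in control 4 and ethanol 3 and lowest in ethanol 4. The r was 0.78 with Agt and Pvalb and -0.84 with Dsg1c, but 0.26 with Slc25a18 and 0.38 with Igsf1. Leaving out each member's own 2 farthest samples brought Agt to 0.40, Pvalb to 0.38 and Dsg1c to -0.54, and gave 0.84 for Slc25a18. For Igsf1 it gave 0.76 by the first probe and 0.04 by the second, for which other samples were left out, so that no order of the members follows from these values. Mbp, the myelin basic protein, had r = -0.87 with Dsg1c.

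Thalamus markers were highest in 2 samples. Their mean level, over 14 of 22 genes, was 8.41 in ethanol 4 and 8.12 in ethanol 3, and 7.35 to 7.55 in all others with control 4 at the top of that range. The r was 0.81 with Slc25a18 and 0.70 with Igsf1, but 0.36 with Agt and 0.09 with Krt12. Without each member's 2 farthest samples it was 0.44 for Slc25a18. For Igsf1 it was then 0.37 by the first probe and 0.59 by the second, for which other samples were left out. Lef1, Slitrk6, Plekhg1, Synpo2, Zic4, Grid2ip and Kcnc2 did not pass the detection filter. Within the list, 2 of 14 genes had r above 0.7 with the mean pattern. The median was 0.41 and the lowest -0.31. Slc17a6, the vesicular glutamate transporter of thalamic neurons, read 5.47, 6.12, 8.62, 8.53, 5.72 and 5.63 in ethanol 1 to 6 and 5.81, 6.20, 6.87, 7.14, 6.41 and 5.66 in control 1 to 6. Its r was 0.94 with Slc25a18, 0.91 with Igsf1, 0.63 with Agt and 0.40 with Krt12. Ethanol 4 thus shared with ethanol 3 the high Slc17a6, Slc25a18 and Igsf1, but not the high Agt, Pvalb or oligodendrocyte markers.

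Striatal projection neuron markers ran the other way. Their mean level was lowest in ethanol 3 (12.39) and next lowest in control 4 (12.62), and its r was -0.92 with the first Sparc probe, -0.89 with Pvalb, -0.87 with Agt and 0.59 with Dsg1c. Without each member's 2 farthest samples these were -0.55, -0.49, -0.31 and 0.64. Of the 18 tested genes, Drd2 (r = -0.80 with the mean pattern), Bcl11b and Rarb were below -0.7, and the median was -0.62. Of the choroid plexus list 2 of 13 genes were tested, Ttr and Clic6; Kl, Folr1, Kcne2, Aqp1, Otx2, Sostdc1, Calml4 and F5 did not pass the filter. Ttr, transthyretin, was at 12.43 in ethanol 3, 10.35 in control 4 and 10.31 in ethanol 4, but also 9.84 in control 3 and 9.58 in control 5, and 5.44 in control 1. The mean of those 2 genes had r = 0.81 with Igsf1, 0.80 with Slc25a18 and 0.78 with Agt, and 0.64, 0.61 and 0.61 without each member's 2 farthest samples. Against the mean pattern, Ttr had r = 0.78 and the other gene 0.35. Septum and pallidum markers (14 of 18 tested) had r = 0.81 with Slc25a18 and 0.44 with Agt. Without each member's 2 farthest samples these became 0.52 and -0.28. Of those 14 genes, 2 had r above 0.7 with the mean pattern, and the median was 0.13. Slc6a11 is also on the astrocyte list, Penk on the striatal list and Zic1 on the thalamus list. Microglia markers (11 of 14) had r = 0.76 with Pvalb and 0.39 with Slc25a18, which became 0.15 and 0.71 without each member's 2 farthest samples. Cortical excitatory neuron markers (9 of 14) had r = 0.16 with the first Igsf1 probe and -0.19 with Agt. The same 2 members gave -0.24 and 0.10 with ependymal (6 of 11) and -0.20 and -0.04 with red blood cell markers (6 of 9). They gave 0.25 and 0.53 with hypothalamus markers (4 of 18) and 0.39 and 0.54 with endothelial and mural markers (17 of 19). With fibroblast and meninges markers (5 of 12) they gave 0.71 and 0.31.

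**Figure D4:**
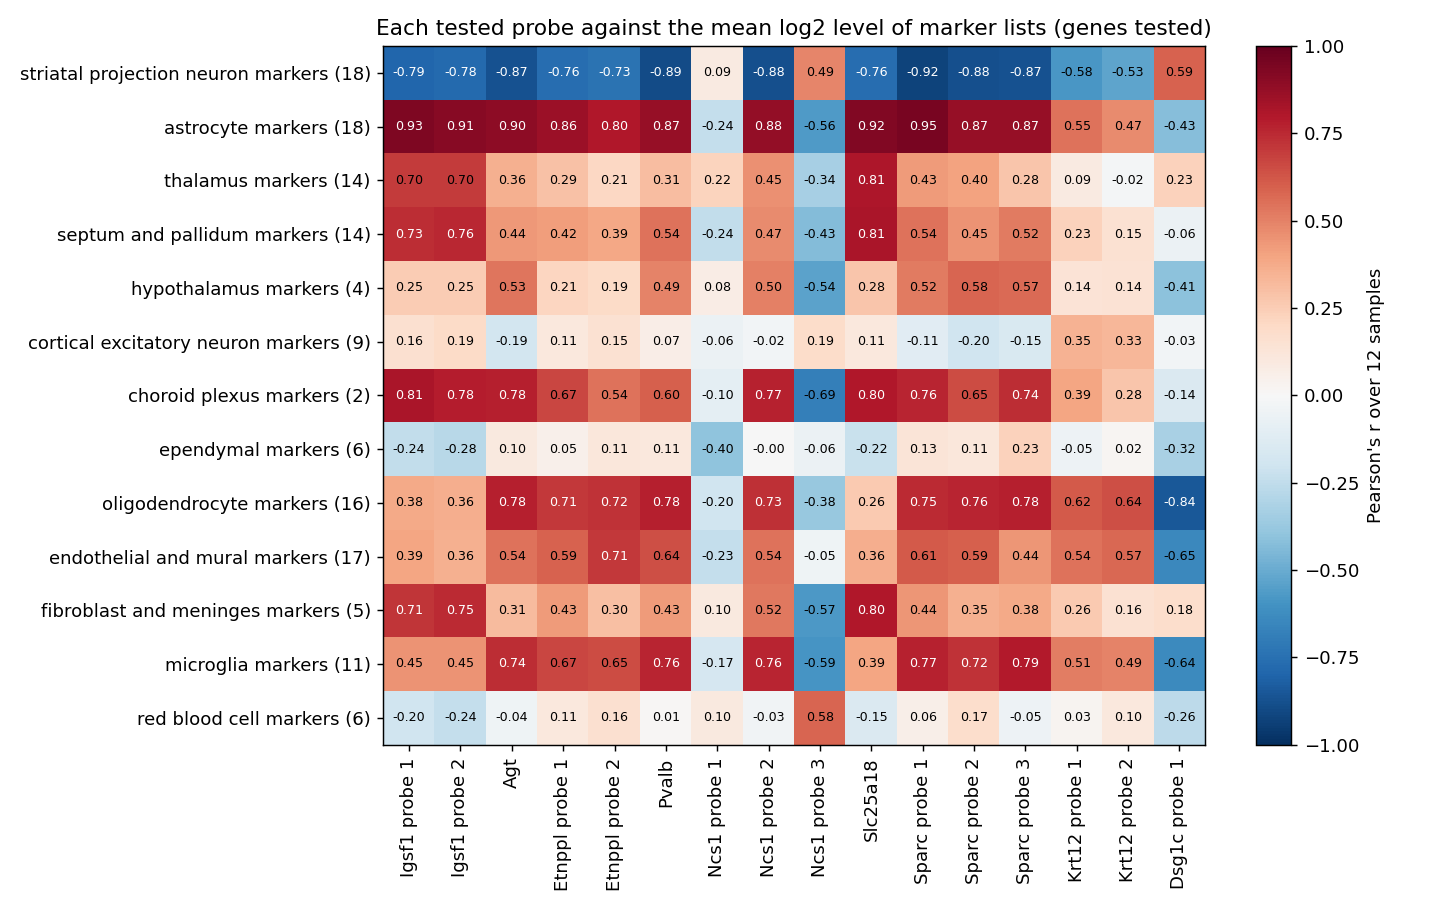
Pearson's r over the 12 samples between each of the 16 tested probes (x) and the mean log2 level of each marker list (y, with the number of genes tested). Astrocyte markers are positive and striatal projection neuron markers negative with most members, while thalamus markers are highest with Slc25a18 (0.81) and oligodendrocyte markers lowest with Dsg1c (-0.84).

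**Figure D5:**
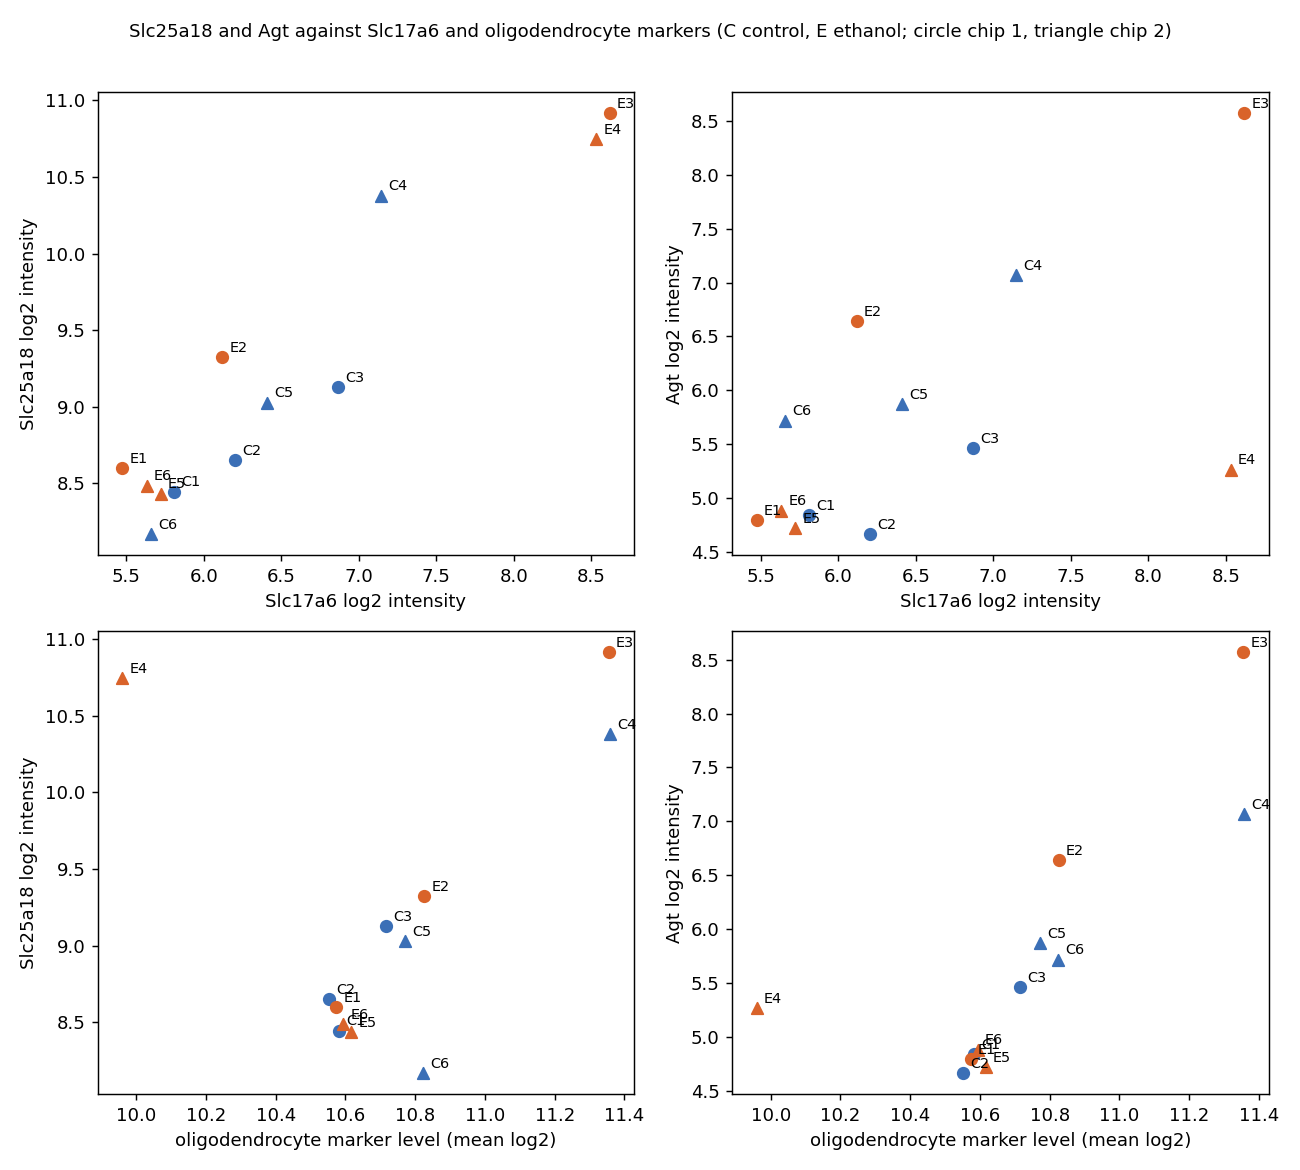
Log2 intensity of Slc25a18 (left) and Agt (right) against Slc17a6 (top) and the mean oligodendrocyte marker level (bottom) in each sample (C control, blue; E ethanol, orange; circles chip 1, triangles chip 2). E4 sits with E3 in Slc25a18 and Slc17a6 but at 5.27 for Agt, where E3 is at 8.57.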

How the data were processed

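Total RNA of 12 caudate putamen samples was measured on Illumina bead arrays labelled with Cy3, per the labels. The deposited raw table holds a linear intensity and a detection p-value per probe and array, per the file headers; the submitters' processing notes name GenomeStudio 1.9.0, whose background setting the sources used here do not state. The authors' deposited normalized intensities were close to quantile-normalized raw intensities (absolute difference 0.0333 at the median, 17.1 at most).

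Background was removed from raw intensities with limma's nec, fed by the detection p-values; values were offset by 16, quantile normalized and taken to log2 (limma 3.58.1, R 4.3.3). Correction stretches the log2 range of dim probes. Probes detected (p under 0.05) on 6 arrays or more were tested with lmFit and eBayes on all 12 arrays, without covariates, two-sided, with Benjamini-Hochberg adjustment and a threshold of 0.05. Group, chip and their interaction were compared. In the annotation 34885 probes had 1 symbol, 18 had several and 10378 had none; all 20 member probes matched RefSeq symbols. The number of arrays limits the precision. No array was a copy of another (smallest root mean square difference 0.272). The fit was tested on simulated data.

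Named genes were all members, the 5 genes with the highest r to each member, the 15 highest and 10 lowest to the mean pattern, and the 3 genes of each list with the smallest p; of genes nearest to several probes of 1 member, those of 1 probe are given, and of the cell marker lists only levels and fixed markers. Members, lists and tests were chosen with earlier results of these data known. Genes with r past 0.7 within a list, Slc5a5's levels and the choice of printed windows were taken after their values were seen. Alternatives changed the background, offset, scaling, filter, chip and replicate terms, and samples.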

Additional observations from a re-analysis of the deposited data

Results flagged for a closer look

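The first Sparc probe read 11.4223 log2 units in control 4, while the other 5 controls lay between 10.1198 and 10.564. The second Sparc probe read 10.1332 in control 4, against 9.0357 to 9.3517 in the other controls. The gap to the next control was 0.659 and 0.712 of the group's whole range, above Dixon's critical value. Sparc was chosen for its levels in these same samples, so this describes the 2 probes and is no test. Of the 32 sets of 6 samples screened, 2 stood out, and both concern 1 gene and 1 sample. The sets share arrays and genes, and the genes were chosen by level, so the count is not set against chance.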

How the results depend on the processing

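No group difference was called, with 0 probes in every alternative, and the member probes kept their side of the threshold in each. The replicate block gave 0 called probes as well, with 1425 at an unadjusted p under 0.05 against 1175 without it. Same-numbered samples lie on the same chip, and their deviations from the group means correlated between -0.138 and 0.277. Whether they were paired in any other way cannot be told from these values. Median scaling left 336 higher and 678 lower probes at that unadjusted p, against 588 and 587.

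Background correction set the size of the members' spread: over the 12 samples the first Igsf1 probe ranged over 4.56 log2 units, or 2.52 without correction, Agt over 3.90 or 1.84, and Pvalb over 3.08 or 2.86. Without correction Pvalb, not Igsf1, thus had the widest range of the members. The same held in the authors' deposited values (2.88 for Pvalb against 2.64 for the first Igsf1 probe). The order of the highest 2 samples of Igsf1 changed, of 5 other settings tried, under median scaling alone, with control 4 second.

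Signs of the uncalled log2 differences were less stable, and the cause was not tested beyond the samples left out. For ethanol minus control, chip 1 alone turned Etnppl probe 1 0.74, Etnppl probe 2 0.64, Pvalb 0.78, Ncs1 probe 1 -0.23, Ncs1 probe 2 0.60, Ncs1 probe 3 -0.063, Sparc probe 3 0.79, Krt12 probe 1 0.0066 and Dsg1c probe 1 -0.47, and chip 2 alone turned Igsf1 probe 1 -0.73, Igsf1 probe 2 -0.66, Agt -1.26, Sparc probe 1 -0.40 and Sparc probe 2 -0.26. Without ethanol 3 and ethanol 4 the turned values were Igsf1 probe 1 -0.79, Igsf1 probe 2 -0.91, Agt -0.34, Slc25a18 -0.26, Sparc probe 1 -0.087 and Sparc probe 2 -0.064, and without ethanol 3 and control 4 they were Igsf1 probe 2 -0.079 and Agt -0.050. With no background correction they were Ncs1 probe 2 0.041 and Sparc probe 3 0.029, with an offset of 50 Ncs1 probe 2 0.034 and Sparc probe 3 0.017, and with the authors' deposited values Ncs1 probe 2 0.041 and Sparc probe 3 0.028. Leaving out 1 sample at a time, differences that turned ranged as follows: Agt -0.34 to 0.50, Etnppl probe 1 -0.57 to 0.055, Etnppl probe 2 -0.44 to 0.034, Igsf1 probe 1 -0.28 to 0.64, Igsf1 probe 2 -0.39 to 0.54, Ncs1 probe 1 -0.0057 to 0.14, Ncs1 probe 2 -0.38 to 0.19, Ncs1 probe 3 -0.053 to 0.091, Pvalb -0.51 to 0.15, Sparc probe 1 -0.070 to 0.34, Sparc probe 2 -0.061 to 0.31 and Sparc probe 3 -0.30 to 0.20.

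For chip 2 minus chip 1, leaving out ethanol 3 and ethanol 4 turned Agt 0.37, Etnppl probe 1 0.24, Etnppl probe 2 0.11, Ncs1 probe 2 0.20, Ncs1 probe 3 -0.016, Sparc probe 1 0.19 and Sparc probe 3 0.13, and leaving out ethanol 3 and control 4 turned Agt 0.021, Ncs1 probe 2 0.021 and Ncs1 probe 3 -0.0090. With 1 sample left out the ranges were Agt -0.59 to 0.34, Etnppl probe 1 -0.42 to 0.27, Etnppl probe 2 -0.43 to 0.096, Igsf1 probe 1 -0.80 to 0.18, Igsf1 probe 2 -0.77 to 0.20, Ncs1 probe 1 -0.012 to 0.15, Ncs1 probe 2 -0.42 to 0.23, Ncs1 probe 3 -0.028 to 0.10, Slc25a18 -0.28 to 0.37, Sparc probe 1 -0.27 to 0.19, Sparc probe 2 -0.14 to 0.28 and Sparc probe 3 -0.40 to 0.11. Probes called for chip numbered 16 without background correction, 15 with the deposited values, 6 without ethanol 3 and ethanol 4, 0 under median scaling, 0 without ethanol 3 and control 4, and 0 to 1 with 1 sample left out, against 2. The interaction turned only without ethanol 3 and control 4, to Igsf1 probe 2 0.11, Ncs1 probe 3 -0.028 and Slc25a18 0.40.

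The first component's share of variance was 22.8% without background correction, 24.0% under median scaling, 22.6% with the deposited values, 15.9% without the filter, 33.8% on chip 1 and 33.1% on chip 2, and 18.5% to 22.2% with 1 sample left out. All 9 members had a probe among its 25 largest loadings, but 1 did so on chip 2 alone, 4 without ethanol 3 and ethanol 4, 3 without ethanol 3 and control 4, and 1 (without ethanol 3) to 9 with 1 sample left out. The members' median pairwise r was 0.67 without ethanol 3 and control 4, and 0.75 to 0.92 with 1 sample left out. The fits without ethanol 3 and control 4, the second mean pattern and the ranges under other settings were added after the data were seen.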
